A study of Homo sapiens with 4 samples.

Results

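The genes described here encode the cohesin complex, its loader and release factors, and CTCF. They were taken by name, 10 in all: SMC1A, SMC3, RAD21, STAG1, STAG2, NIPBL, WAPL, PDS5A, PDS5B and CTCF. Of these, 8 are rows of the table used here. It holds 10147 genes that the authors took as expressed, of which 11 have a mean of 0. SMC1A and RAD21 were not analysed here because they are not rows of it. All 8 passed the minimum of 10 reads summed over the library columns, as did 9990 genes of the whole table.

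RNA synthesis was measured by TT-seq, in which a short pulse of 4-thiouridine (4sU) marks newly made RNA before it is isolated and fragmented, in K562, a human erythroid leukemia cell line. Every cell carried a degradation tag (dTAG) integrated at the IWS1 locus, so the control cells bear the tagged protein too and no untagged cells are part of the comparison. Control cells received the solvent DMSO and dIWS1 cells received 500 nM of the ligand dTAG7, which depletes tagged IWS1, each for 1 h, and a 5 min pulse of 500 µM 4sU came after. The labels give 2 libraries per condition, described as biological duplicates, and synthetic spike-in RNAs were added at lysis to set the scale.

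The table gives 1 mean per gene over 4 library columns, and whole reads per column were recovered from these means for 10130 genes. They resolved into 1 control column with the weight of 2 columns, and 2 dIWS1 columns, called dIWS1 column 1 and column 2 since they carry no replicate number. The control column was counted once. The control size factor given below takes it as 1 library entered 2 times. A sum of 2 control libraries would need size factors equal to every digit recovered, and the means carry no label that tells. No spread between control libraries is available, and every test assumes that control varies as the dIWS1 columns do. Depth was 28716835 reads in genes for control, 19936504 for dIWS1 column 1 and 20161720 for dIWS1 column 2, with spike-in size factors of 1.01, 0.993 and 0.919. All 10 erythroid markers fixed for this line, such as GATA1 and TFRC, are in the table with 129 to 16164 control reads, and none of the 6 markers of other cell types is a row of it. The authors also left overlapping genes out of the table, so a missing row, here or for any gene below, does not show lack of expression.

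Cohesin is a ring of the SMC1A and SMC3 ATPases closed by the kleisin RAD21 and bound by either STAG1 or STAG2, and it holds sister chromatids together and extrudes chromatin loops. NIPBL, with its partner MAU2, loads cohesin and drives loop extrusion, whereas WAPL, with PDS5A or PDS5B, opens the ring and releases it. CTCF is the zinc finger protein that stops extruding cohesin at its binding sites, and cohesin genes, STAG2 above all, are recurrently mutated in myeloid leukemias.

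The sequences just upstream of the annotated starts are shown first for 3 genes whose values mark the range of the results: SMC3, the least reduced, STAG1, the most reduced, and NIPBL, which starts beside a divergent transcript. Each is the 250 bases before the RefSeq start on the gene's own strand in GRCh38.p14, at chr10:110567445-110567694 (plus strand) for SMC3, chr3:136752379-136752628 (minus strand) for STAG1 and chr5:36876519-36876768 (plus strand) for NIPBL. Capitals mark matches, on either strand, to the GC box GGGCGG, the CCAAT box CCAAT or the ETS motif CCGGAAG.
SMC3: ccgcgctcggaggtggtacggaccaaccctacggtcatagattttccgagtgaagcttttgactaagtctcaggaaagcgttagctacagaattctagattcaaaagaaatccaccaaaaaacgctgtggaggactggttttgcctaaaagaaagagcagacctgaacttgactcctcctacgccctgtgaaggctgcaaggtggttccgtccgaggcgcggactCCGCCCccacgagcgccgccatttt
STAG1: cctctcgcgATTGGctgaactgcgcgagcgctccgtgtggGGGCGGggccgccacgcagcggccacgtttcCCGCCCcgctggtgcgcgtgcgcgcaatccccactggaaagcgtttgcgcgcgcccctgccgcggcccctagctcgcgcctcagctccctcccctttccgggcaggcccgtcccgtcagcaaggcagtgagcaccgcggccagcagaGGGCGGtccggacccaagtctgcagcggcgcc
NIPBL: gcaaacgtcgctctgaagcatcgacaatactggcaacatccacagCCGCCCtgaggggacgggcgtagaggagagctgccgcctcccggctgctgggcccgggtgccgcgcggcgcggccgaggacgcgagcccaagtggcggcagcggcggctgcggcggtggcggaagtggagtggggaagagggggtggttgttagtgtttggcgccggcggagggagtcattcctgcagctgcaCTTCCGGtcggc

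All 8 genes matched an entry of the RefSeq start table, with 10 windows because STAG2 has 3 annotated starts. The SMC3 window holds the lowest GC content of the 10, 52.8%, with 17 CpG dinucleotides. STAG2 windows 2 and 3 hold fewer CpG, 13 and 14, at 64.0% and 60.0% GC. STAG1 has 74.4% GC and 34 CpG, and NIPBL 70.0% and 28. PDS5B has the highest values, 78.0% and 41 CpG, and the median over all 35116 windows is 58.0% and 11. A GC box occurs in 10 of the 10 windows and in 42.6% of all windows, and a CCAAT box in 6 windows of 5 genes and in 32.0% of all. The ETS motif was found only at NIPBL among the 10 windows (8.52% of all windows hold it). The TATA box TATAAA was found in none of the 10, beside 10.7% of all windows. These are matches of letters in the windows and are not evidence of binding.

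RNA synthesis of the cohesin, loader and CTCF genes was lower after IWS1 depletion, by a median log2 fold change of -0.47 (dIWS1 over control, spike-in scaling), beside -0.42 over all 9990 genes tested. STAG1, one of the alternative ring-binding subunits, and PDS5A, a release cofactor, showed the lowest log2 fold changes, -0.66 and -0.60, and SMC3, an ATPase of the ring, the highest, -0.19. Of the 8 genes, 7 were called lower and 0 higher in limma's moderated test with Benjamini-Hochberg adjusted p under 0.05, where 65.1% of all genes tested were called lower and 0.13% higher. The share among the 8 is thus read against a background in which most genes were lower. With a log2 fold change of -0.5 or less asked as well, 3 of the 8 were lower (STAG1, PDS5A and PDS5B), beside 37.6% of all genes. In both dIWS1 columns 8 of 8 genes lay below control, as did 92.7% of all genes. At an unadjusted p under 0.05, and in limma's trend test, 0 of the 8 were higher as well. All 8 log2 fold changes were below 0 on this scale, so no threshold could have called any of them higher. The p-values rest on a spread between these library columns that was estimated jointly over all genes. A gap between the dIWS1 columns, shared by most genes and given below, is part of that spread. The genes are therefore not independent measures of it, and a small p-value does not measure the replicate spread of that gene. In bulk RNA, fewer cells making a transcript and less made per cell cannot be told apart.

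Since nearly all genes moved down together, each column was also centred on its median gene, which shifts the median gene by 0.41 on the log2 scale (0.44 when columns are scaled to total reads). After centring, STAG1 and PDS5A were called lower and SMC3 higher in the same limma test, while 13.7% of all genes were called lower and 12.4% higher. The median of the 8 genes was then -0.05. Relative to each column's own median gene, 4 of the 8 (STAG1, WAPL, PDS5A and PDS5B) lay below it in both dIWS1 columns and 2 (SMC3 and NIPBL) above it in both, where 42.0% of all genes lay below in both and 42.0% above in both. STAG2 and CTCF lay below the median gene in column 1 and above it in column 2.

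The dIWS1 columns were not alike in scale. Under spike-in scaling column 1 lay below column 2 for 8 of 8 genes and for 79.3% of all genes. The median gap was 0.12 on the log2 scale over the 8883 genes with a mean over 100 (SD over genes, 0.131). Before scaling, the median ratio of reads to control was 0.711 in column 1 and 0.710 in column 2. The log2 size factors relative to control were -0.02 and -0.13, so the count of 8 belongs to the scaling applied. WAPL alone of the 8 genes had more unscaled reads in column 1 than in column 2. Among the 8 genes the gap ran from 0.08 for WAPL to 0.29 for CTCF. This gap enters the standard errors, which ran from 0.14 to 0.15 for the 8 genes and had a median of 0.15 over all genes. In the centred fit, which removes the gap and also shifts every gene, the standard errors of the 8 genes were 0.05 to 0.08. The part of the gap alone in the calls was not tested.

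**Figure D1:**
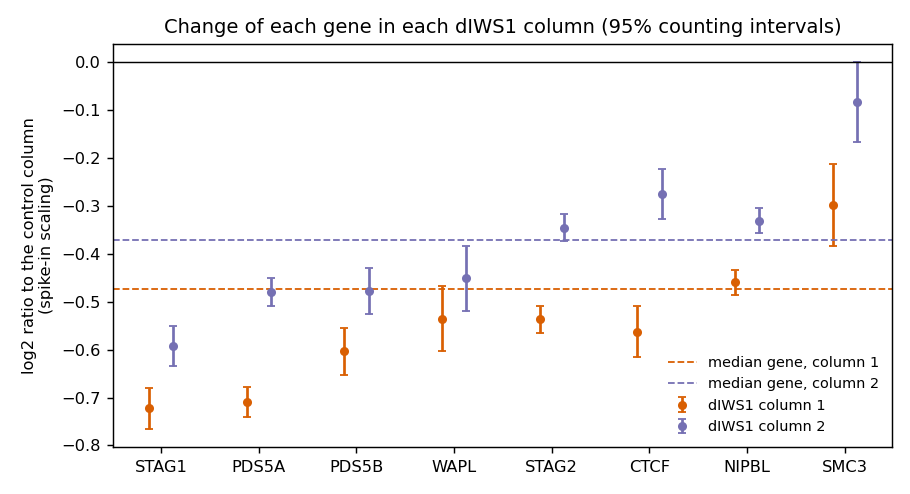
Log2 ratio of each dIWS1 column to the control column (y axis, spike-in scaling) for the 8 genes, ordered by log2 fold change; points are single library columns, bars are 95% intervals for counting error only, and dashed lines are the median gene of each column (-0.47 and -0.37). Every point lies below 0, column 1 lies below column 2 for each gene, and SMC3 and NIPBL lie above the dashed line of each column, so they turn above 0 when columns are centred on the median gene.

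Levels are compared between genes only per length, as spike-in normalized reads per kb of RefSeq gene span, with intervals for counting error only. STAG2 had the highest level, 170.1 in control, 117.2 in dIWS1 column 1 and 133.8 in column 2. It was followed by the loader gene NIPBL at 148.7, 108.2 and 118.2, and by PDS5A at 143.7, 87.9 and 103.0 in the same order of columns. These 3 genes stood at or above the 90.2 percentile of all genes per kb. CTCF was intermediate, at 89.8 in control and 60.8 and 74.2 in the dIWS1 columns, and SMC3 followed at 64.1, 52.1 and 60.4. WAPL had 49.1, 33.9 and 35.9 reads per kb, PDS5B 44.3, 29.1 and 31.8, and STAG1 the lowest level of the 8, with 28.0, 17.0 and 18.6. The order of the 8 genes was taken from the control column and was the same in all 3 columns. Within a column the intervals of 7 of 7 neighbours did not overlap. With 1984 or more reads per gene and column, counting intervals are narrow, and the share among all genes was not counted. The order is therefore a description and not a test. Per kb of summed exons in place of span, the order of the authors' means differed: STAG2 remained highest (3399) but SMC3 became lowest (418), and STAG1 (1569) stood beside CTCF (1580).

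**Figure D2:**
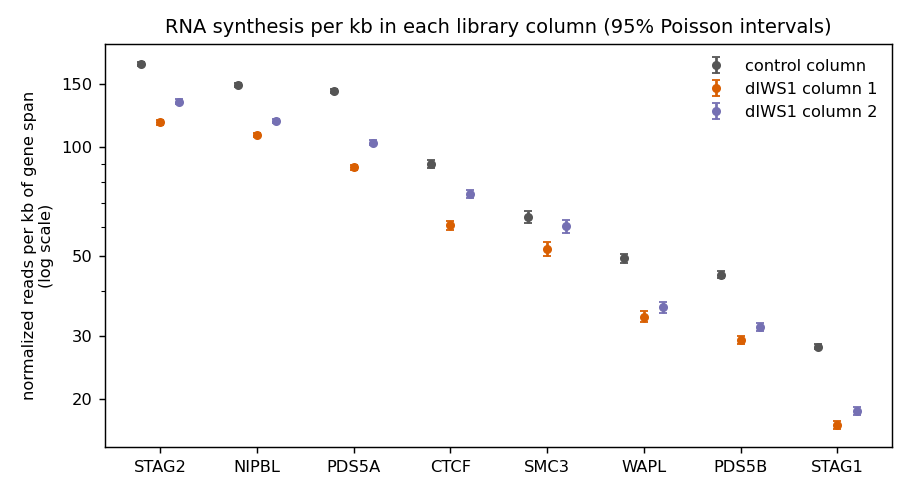
Normalized reads per kb of gene span (log y axis) of the 8 genes in the control column and both dIWS1 columns, with 95% Poisson intervals for counting error. STAG2 is highest and STAG1 lowest in every column, and each gene's control point lies above its dIWS1 points under spike-in scaling; centred on the median gene, SMC3 is higher in dIWS1.

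SMC3, on chromosome 10 from 110567695 to 110606048 on the plus strand (GRCh38, 38354 bp), had the shortest span of the 8. Reads were 2480 in control, 1984 in dIWS1 column 1 and 2130 in column 2, which is 2456, 1998 and 2317 after spike-in scaling. The dIWS1 columns thus held 81.3% and 94.3% of control, both lower, and for column 2 the 95% counting interval of the log2 ratio of -0.08 ended just below 0 (-0.17 to -0.001). The log2 fold change was -0.19 (SE 0.15) and did not pass the test (limma adjusted p = 0.235, unadjusted 0.198). Centred on the median gene it turned to 0.22 (SE 0.07) and was called higher (limma adjusted p = 0.04). SMC3 kept more of its control level than the median gene did, by 0.17 in column 1 and 0.29 in column 2 on the log2 scale, and 84.3% of genes had a lower log2 fold change.

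STAG1 and STAG2 encode alternative subunits that bind the same surface of the ring. STAG1 lies on chromosome 3 from 136336236 to 136752378 on the minus strand, and its 416143 bp exceed the spans of 99.1% of genes. It had 11751 reads in control, 7008 in dIWS1 column 1 and 7097 in column 2, or 11639, 7056 and 7719 after scaling. Both dIWS1 columns lay well below control, at 60.6% and 66.3% of it, and nearer to each other than to control. The log2 fold change was -0.66 (SE 0.15, limma adjusted p = 5.42e-05), a fold of 0.634, and STAG1 was also called lower when centred on the median gene (-0.24, SE 0.06, limma adjusted p = 0.0117). STAG2, on chromosome X from 123960560 to 124102656 on the plus strand (142097 bp), had 24399, 16540 and 17484 reads, or 24167, 16653 and 19016 after scaling. Its dIWS1 columns were at 68.9% and 78.7% of control, with a log2 fold change of -0.44 (SE 0.14, limma adjusted p = 0.00457), and centred on the median gene it was at -0.03 (SE 0.06, limma adjusted p = 0.754).

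Comparing 2 genes within a column removes the scaling, since both share the column's factor. STAG1 fell further than STAG2 by 0.18 on the log2 scale in column 1 (95% interval of the difference, -0.24 to -0.13) and by 0.25 in column 2 (-0.30 to -0.20). Per kb, STAG2 made 6.08 times as many reads as STAG1 in control (95% interval 5.95 to 6.22), 6.91 times in dIWS1 column 1 (6.72 to 7.11) and 7.21 times in column 2 (7.02 to 7.42). The ratio of STAG2 to STAG1 was therefore higher in both dIWS1 columns than in control beyond counting error. The spread between control libraries is unknown for this ratio as for all others.

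NIPBL, the loader and extrusion cofactor, lies on chromosome 5 from 36876769 to 37066413 on the plus strand (189645 bp) and had the most reads of the 8 genes. There were 28470 reads in control, 20371 in dIWS1 column 1 and 20610 in column 2, or 28199, 20510 and 22416 after scaling. The dIWS1 columns were at 72.7% and 79.5% of control, close to the median gene in both (0.01 and 0.04 above it on the log2 scale). The log2 fold change was -0.40 (SE 0.14, limma adjusted p = 0.0103) under spike-in scaling and 0.02 (SE 0.05, limma adjusted p = 0.822) when centred on the median gene. Limma's trend test gave the same -0.40 with an adjusted p of 0.0538.

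MAU2, the partner that NIPBL needs for loading, showed a lower value than NIPBL. Its reads were 2726 in control, 1426 in dIWS1 column 1 and 1414 in column 2, so both dIWS1 columns stood near the same level, at 53.2% and 57.0% of control after scaling. The log2 fold change was -0.86 (SE 0.15, limma adjusted p = 1.12e-07), and -0.45 (limma adjusted p = 0.00139) when centred on the median gene. NIPBL exceeded MAU2 in log2 ratio by 0.45 in column 1 (0.36 to 0.55) and by 0.48 in column 2 (0.38 to 0.58). Per kb, NIPBL made 2.09 times as many reads as MAU2 in control (2.01 to 2.17), 2.86 times in dIWS1 column 1 (2.71 to 3.01) and 2.91 times in column 2 (2.76 to 3.08). Of the role pairs compared, the loader subunits showed the widest difference.

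NIPBL is divergent from the noncoding gene NIPBL-AS1 (NIPBL-DT in RefSeq), chosen after its values were seen, which lies from 36871361 to 36876694 on the minus strand with 74 bases between the spans, and reads were counted with respect to strand. NIPBL-AS1 had 598 reads in control, 483 in dIWS1 column 1 and 443 in column 2. Its log2 ratios were -0.28 and -0.30, with a log2 fold change of -0.29 (SE 0.13, limma adjusted p = 0.0393), and 0.12 (limma adjusted p = 0.381) when centred. NIPBL minus NIPBL-AS1 was -0.17 in column 1 (-0.35 to 0.0001) and -0.03 in column 2 (-0.21 to 0.15), so a difference between these neighbours was not detectable at this depth.

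WAPL, the release factor, lies on chromosome 10 from 86435256 to 86521792 on the minus strand (86537 bp). It had 4293 reads in control, 2913 in dIWS1 column 1 and 2859 in column 2, or 4252, 2933 and 3110 after scaling. At 69.0% and 73.1% of control, its dIWS1 columns were the closest to each other of the 8 genes on the log2 scale. The log2 fold change was -0.49 (SE 0.15, limma adjusted p = 0.0029), and -0.08 (SE 0.06, limma adjusted p = 0.386) when centred on the median gene. NIPBL exceeded WAPL in log2 ratio by 0.08 in column 1 (0.004 to 0.15) and 0.12 in column 2 (0.05 to 0.19). Per kb the ratio of the loader gene to the release gene was 3.03 in control (2.93 to 3.12), 3.19 in dIWS1 column 1 (3.07 to 3.32) and 3.29 in column 2 (3.16 to 3.42).

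PDS5A and PDS5B are paralogs that bind the ring and serve WAPL in release. PDS5A lies on chromosome 4 from 39822863 to 39977911 on the minus strand (155049 bp), with 22496 reads in control, 13536 in dIWS1 column 1 and 14687 in column 2, or 22282, 13629 and 15974 after scaling. Its dIWS1 columns were at 61.2% and 71.7% of control, and the log2 fold change was -0.60 (SE 0.14, limma adjusted p = 0.000162). Centred on the median gene PDS5A was called lower by a narrow margin (-0.18, SE 0.06, limma adjusted p = 0.0496). PDS5B lies on chromosome 13 from 32586452 to 32778019 on the plus strand (191568 bp), with 8561, 5541 and 5598 reads, or 8480, 5579 and 6088 after scaling. It stood at 65.8% and 71.8% of control, with a log2 fold change of -0.54 (SE 0.15, limma adjusted p = 0.000953), and -0.13 (SE 0.06, limma adjusted p = 0.141) when centred. The paralogs differed in column 1 by -0.11 (PDS5A minus PDS5B, -0.16 to -0.05) but not beyond counting error in column 2 (-0.0023, -0.06 to 0.05). Their ratio per kb was 3.25 in control (3.17 to 3.33), 3.02 in dIWS1 column 1 (2.93 to 3.11) and 3.24 in column 2 (3.14 to 3.34).

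CTCF lies on chromosome 16 from 67562526 to 67639177 on the plus strand (76652 bp). It had 6948 reads in control, 4628 in dIWS1 column 1 and 5226 in column 2, or 6882, 4660 and 5684 after scaling. The dIWS1 columns were at 67.7% and 82.6% of control, the widest gap between columns among the 8 genes. The log2 fold change was -0.42 (SE 0.15, limma adjusted p = 0.0106), and it was -0.01 (SE 0.08, limma adjusted p = 0.967) when centred on the median gene and 0.02 when scaled to total reads. CTCF thus moved with the median gene, with columns on both sides of it.

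Across the 4 role pairs that could be compared, the interval of the difference excluded 0 in both dIWS1 columns for 3: STAG1 and STAG2, NIPBL and WAPL, and NIPBL and MAU2. The share of all gene pairs that would do so was not counted, so this count has no background. The intervals cover counting error only, and the quartiles of the log2 fold change over all genes tested were -0.60 and -0.26. Both columns are also set against the same control column, so they are not independent. The pairs SMC1A with SMC3 and RAD21 with CTCF were not analysed here. Ordered by log2 fold change, the genes ran STAG1, PDS5A, PDS5B, WAPL, STAG2, CTCF, NIPBL and SMC3. This order comes from the same values, so differences between neighbours in it are a description and not a test. The widest step was between NIPBL and SMC3, at -0.16 in column 1 (95% counting interval -0.25 to -0.07) and -0.25 in column 2 (-0.33 to -0.16). For the other 6 of the 7 neighbouring pairs the counting interval included 0 in at least 1 of the columns.

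**Figure D3:**
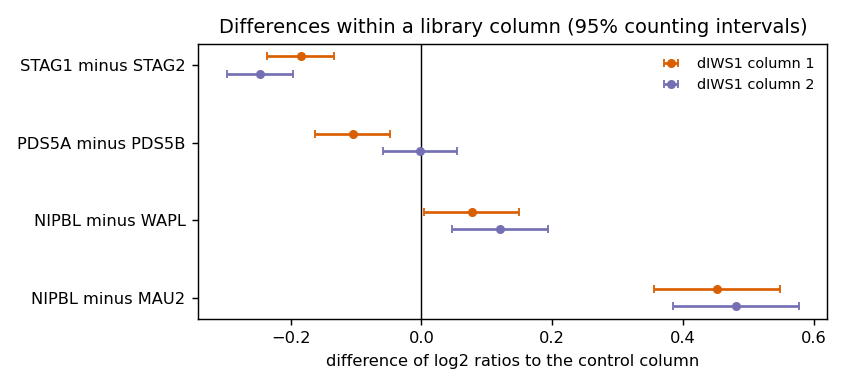
Difference between 2 genes in their log2 ratio to control (x axis), for the 4 pairs fixed by role, in each dIWS1 column; bars are 95% intervals for counting error only. The NIPBL minus MAU2 points, 0.45 and 0.48, lie farthest from 0, and the PDS5A minus PDS5B interval of column 2 includes 0.

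Most of these genes are long. SMC3 lies in the third quartile of RefSeq spans (27.6 to 63.9 kb), and the other 7 lie in the longest quartile, above 63.9 kb. Median log2 fold changes over all genes were -0.48, -0.39, -0.34 and -0.49 from the shortest to the longest quartile, with 2486 genes in each. The 7 long genes had a median of -0.49, and 77.0% of genes in the longest quartile were called lower. Beside genes of like span, the 7 long genes were therefore centred on the same value, and STAG1, with the longest span, had the lowest log2 fold change. Among the others the change did not follow span: PDS5A (155 kb) was at -0.60, PDS5B (192 kb) at -0.54 and NIPBL (190 kb) at -0.40. A RefSeq span was found for 9944 of the 9990 genes tested.

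**Figure D4:**
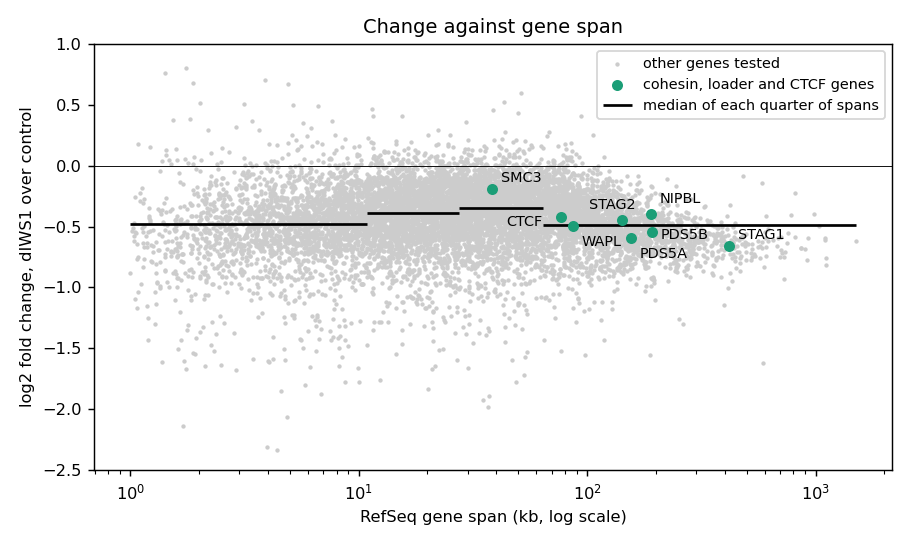
Log2 fold change (y axis, dIWS1 over control, spike-in scaling) against RefSeq gene span (x axis, kb, log scale) for 9745 genes with spans of at least 1 kb and values between -2.5 and 1 (199 genes lie outside); green points are the 8 genes and black lines the median of each span quartile. SMC3 lies above its quartile's median of -0.34, and STAG1, PDS5A and PDS5B lie below the -0.49 of theirs, with WAPL just below it.

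Other genes of the pathway were followed as lists by role, 35 named genes of which 27 are in the table. The lists, MAU2 among them, were chosen with earlier results of these data known. Of these, 20 were called lower, 0 higher and 7 were not called, beside 65.1% lower and 0.13% higher among all genes tested, so the count is near the background. Their median log2 fold change was -0.36, which is 0.07 above that of all genes. Centred on the median gene, 4 were called lower (MAU2, CHTF8, NSMCE1 and NSMCE2) and 1 higher (NCAPG), beside 13.7% lower and 12.4% higher among all genes. In this fit 14 of the 27, 7 of them called lower under spike-in scaling, had a centred log2 fold change above 0. Among the loader and acetylation genes 3 of 4 were called lower, a list too short to be told from the 65.1% of all genes. HDAC8, the deacetylase of SMC3, was at -0.59 (limma adjusted p = 0.000387), ESCO2, an SMC3 acetyltransferase, at -0.35 (limma adjusted p = 0.0176) and its paralog ESCO1 at -0.30 (limma adjusted p = 0.07). When centred, HDAC8 was at -0.18 and ESCO2 and ESCO1 turned to 0.06 and 0.12, none of them called.

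Of 8 sister chromatid cohesion genes 4 were called lower, beside 65.1% of all genes, and the list is too short to tell these shares apart. The median log2 fold change of this list was -0.30. CHTF8 and CHTF18, subunits of the alternative clamp loader of cohesion establishment, were at -0.65 (limma adjusted p = 2.43e-05) and -0.59 (limma adjusted p = 5.42e-05), and the separase gene ESPL1 was at -0.53 (limma adjusted p = 0.000622). The cohesin protector gene SGO1 was at -0.34 (limma adjusted p = 0.0271). The securin gene PTTG1 was at -0.14 (limma adjusted p = 0.32), and SGO2, DSCC1 and the sororin gene CDCA5 ranged from -0.21 to -0.26, all with adjusted p over the threshold. None of the 4 meiotic paralogs is a row of the table. Of the CTCF paralog and factors reported at the same sites, 4 of 5 are rows and all 4 were called lower, where 65.1% of all genes were: PATZ1 at -0.65, ZNF143 at -0.54, MAZ at -0.49 and CTCFL, the CTCF paralog, at -0.35. None of the 4 was called when centred, and CTCFL then turned to 0.07.

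The other SMC complexes, condensins and SMC5/6, held the extremes, with 9 of 11 genes in the table called lower, beside 65.1% of all genes. NSMCE1, a RING finger subunit of SMC5/6, had 788 reads in control and 298 in each dIWS1 column, with log2 ratios of -1.38 and -1.27. Its log2 fold change of -1.32 (SE 0.13, limma adjusted p = 3.98e-20) was the lowest of the 27 other pathway genes and the 8 genes above, and it was -0.91 (limma adjusted p = 0.000268) when centred. At the other end NCAPG, a condensin I subunit, had 5272 reads in control, 5095 in dIWS1 column 1 and 5202 in column 2, with log2 ratios of -0.03 and 0.12. NCAPG was not called under spike-in scaling (0.04, SE 0.15, limma adjusted p = 0.788) and was called higher when centred (0.46, limma adjusted p = 0.000892). SMC6 was at -0.55 and SMC5 at -0.34, and the condensin ATPase gene SMC2 at -0.32 (limma adjusted p = 0.0482).

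**Figure D5:**
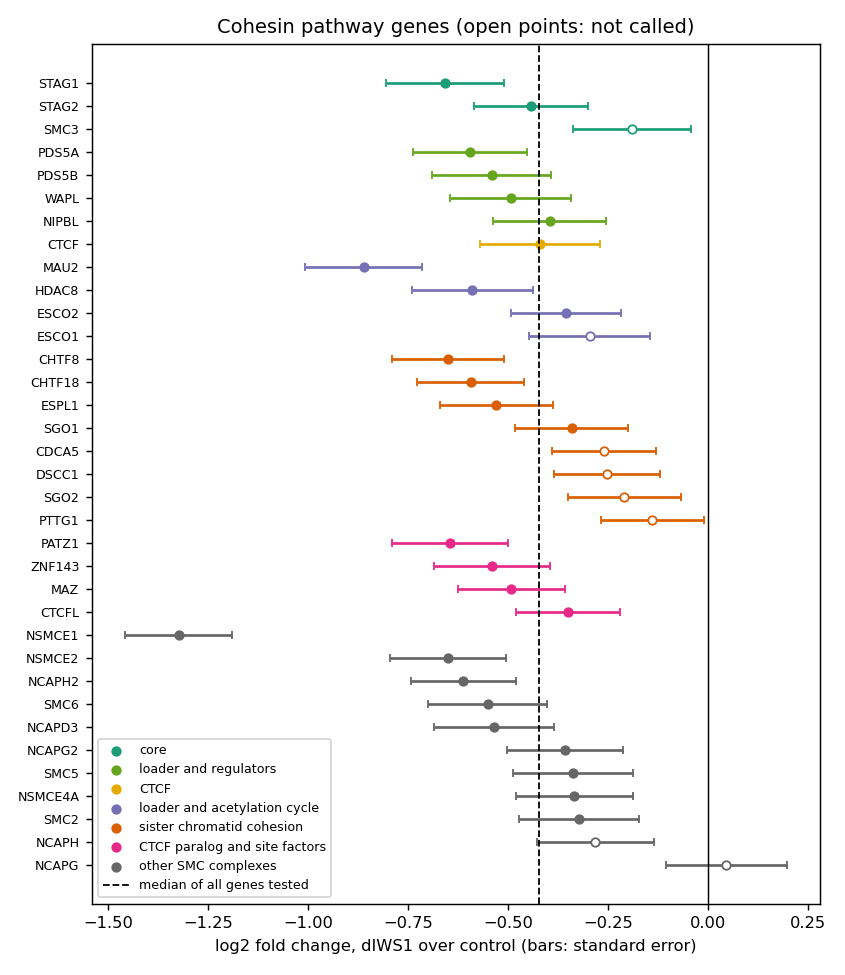
Log2 fold change (x axis, dIWS1 over control, spike-in scaling) with its standard error for the 8 genes and the 27 other pathway genes in the table, coloured by list; open points were not called, and the dashed line is the median of all genes tested (-0.42). NSMCE1 at -1.32 and MAU2 at -0.86 lie farthest left, and NCAPG at 0.04 farthest right.

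The tagged gene itself, IWS1, had 3684 reads in control, 2334 in dIWS1 column 1 and 2427 in column 2. Its log2 fold change was -0.55 (SE 0.15, limma adjusted p = 0.000861) and -0.14 (limma adjusted p = 0.15) when centred on the median gene. dTAG7 removes the protein, so these reads do not check the depletion.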

How the data were processed

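TT-seq libraries from 2 control and 2 dIWS1 samples were used. The authors aligned reads with STAR 2.6.0 to GRCh38 with added spike-in sequences, keeping unique alignments. Read pairs per RefSeq gene were counted by strand, overlapping genes were removed and genes over an expression threshold were kept. The authors then ran DESeq2, scaling each library by its spike-in reads. The deposited table has no count columns. Its coverage signal is a mean of size-factor-scaled counts over the libraries, and its log2 fold changes, their errors, scores and p-values are the authors' comparison. None of these comparison values is printed or used in a test here. The deposited log2 ratio served only to read which recovered columns are dIWS1, by matching its value to the recovered ratio or its inverse.

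Each mean was written as whole multiples of 3 steps, the worth of 1 read in a column, 0.495, 0.252 and 0.272 normalized reads. Of 10147 genes 10130 had 1 solution, 16 had several and 1 had none, and the last 2 kinds were left out, also from the depths given. The recovery and the fit were tested on simulated data.

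The authors' DESeq2 was replaced by limma voom (limma 3.58.1, R 4.3.3) on the recovered reads, with spike-in size factors as scale, and genes with at least 10 reads over all columns. With 1 residual degree of freedom per gene the spread was estimated jointly over all 9990 genes. The test then had 9990 total degrees of freedom (median over genes), although the genes share the same 3 library columns. Calls used Benjamini-Hochberg adjusted p under 0.05. Counting intervals are at 95% and cover counting error only, since PCR copies are not independent molecules. Single-column log2 ratios between genes carry no scaling. Spans and starts came from RefSeq (GRCh38.p14) and exon lengths from canonical transcripts. Python 3.11.15, numpy 2.4.6, pandas 2.3.3, scipy 1.17.1 and matplotlib 3.10.9 were used.

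The members and gene lists were chosen with earlier results of these data known, except NIPBL-AS1 and the neighbours in order, which were added after these values were seen, as was the count of genes above or below the median gene in each single column. The fit centred on the median gene was planned. Named genes are the members, the pathway lists fixed by role and IWS1. Alternatives were other scalings, filters, tests and thresholds, the control column entered 2 times, each dIWS1 column alone, a pseudocount of 5 and exon length.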

Additional observations from a re-analysis of the deposited data

How the results depend on the processing

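The scaling changed the results most. Scaled to total reads in genes, 1426 genes were lower and 1882 higher, against 6502 and 13 under spike-in scaling, and centred on the median gene 1367 were lower and 1243 higher. Of the 8 cohesin, loader and CTCF genes 2 were lower and 1 higher under either scaling, against 7 and 0, and their median log2 fold change was -0.029 scaled to total reads and -0.054 centred, against -0.47. SMC3 turned to 0.25 scaled to total reads (limma adjusted p = 0.00477) and to 0.22 centred, NIPBL to 0.044 and 0.019, and CTCF to 0.02 scaled to total reads, while STAG2, WAPL and PDS5B kept their direction and lost their calls under both, as CTCF did centred. Asking for a log2 change of at least 0.5 left 3759 genes lower and 6 higher, and 3 of the 8 lower. Genes higher numbered 55 with the control column entered as 2 equal samples, 8 by limma's trend test and 6 at an adjusted p under 0.01. NIPBL lost its call by the trend test (adjusted p = 0.0538). The other alternatives kept the counts within 1.5 times. For the count of the 8 genes lower these were no filter on reads (7, beside 6538 of all genes) and a mean of at least 100 (7, beside 6079). The rest were the control column entered 2 times (7, beside 7834), the trend test (6, beside 5469) and an adjusted p under 0.01 (5, beside 4888). The count of the 8 is read against these counts over all genes. With 1 dIWS1 column left out the median of the 8 genes was -0.55 or -0.40. That leaves 1 column against 1 and no test, so no counts of calls were made. No paired analysis was possible because the recovered columns carry no replicate numbers. The fewest reads in a column were 1984 among the 8 genes, 1414 for MAU2 and 443 for NIPBL-AS1. Among the other pathway genes the fewest were 189, for PATZ1, and NSMCE1 had 298 in each dIWS1 column. Counting intervals of PATZ1 and NSMCE1 are wider than those of NIPBL-AS1. The lack of a second control column limits all of these genes. The cause of these changes was not tested beyond the scaling itself.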
